A study of Mus musculus with 30 samples.

Results

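The 5 GATA factors Gata2, Gata3, Gata4, Gata5 and Gata6 and the 2 FOG cofactors Zfpm1 and Zfpm2 were followed across cultures of embryonic mouse limb mesenchyme with and without BMP4, a signalling protein of the bone morphogenetic protein family. The genes were chosen by name as a family, with earlier results of these data known. All probe sets annotated to them were taken, which were 14 of the 45101 on the array, and the brightest probe set stood for each gene. All 7 were among the 15136 genes tested. The 30 arrays hold 15 groups of 2 arrays, which the labels call biological replicates. All cells came from limb buds of CD-1 embryos of stage E10.5, pooled from about 280 embryos, made into single cells and plated densely. The age of E10.5 is the one on every sample, while the growth protocol also names limb buds of E11.5. The early population was taken from the distal hind limb, the intermediate population from the distal fore limb and the late population from the proximal fore limb. BMP4 cultures received 20 ng/ml BMP4 at the start and were sampled at days 1 and 2, and control cultures in the same serum-containing medium without added BMP4 were sampled at days 0, 1 and 2. No BMP4 group exists at day 0. The populations are dissected pieces of tissue and not sorted cells, and hind limb and distal position differ together between the early and the late population.

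GATA factors are transcription factors that bind the sequence GATA through a pair of zinc fingers. Gata2 and Gata3 are best known from blood progenitors, mast cells, T cells and sympathetic neurons, while Gata4, Gata5 and Gata6 are best known from the heart and the endoderm. In mouse limb buds Gata6 is known as a factor of the anterior mesenchyme that restrains hedgehog signalling. The FOG proteins, encoded by Zfpm1 and Zfpm2, hold many zinc fingers, bind the amino-terminal zinc finger of a GATA factor and bring corepressors such as the NuRD complex and CtBP to its targets. BMP signals act upstream of several GATA genes in the heart field and in ventral mesoderm.

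Values are the deposited linear signal intensity, and differences are differences of log2(signal + 16) between group means, with the standard error of 1 limma fit over all 30 arrays. A difference passed when its p-value, adjusted by Benjamini-Hochberg over the 15136 genes, was under 0.05. Median signals ran between 33.9 and 46.4 over the arrays. A probe set counted as low where its signal did not exceed the 40th percentile of the array, a value of 20.3 to 30.5. Gata2, Gata6 and Zfpm1 were above that percentile on 30 of 30 arrays, Gata4 on 28, Gata3 and Zfpm2 on 24 and Gata5 on 22. All 6 markers of limb mesenchyme (Prrx1, Prrx2, Twist1, Msx1, Lhx2 and Lhx9) were measured, and their summed signal was 3555 to 6783 on BMP4 arrays, against 2988 to 5650 on the control arrays of days 1 and 2 and 7077 to 8339 on the day 0 arrays. The precision is limited by 2 arrays per group, and the added 16 makes the differences of dim genes smaller. Different probe sets hybridise differently, so levels are compared between samples and never between genes.

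The day 0 arrays did not all match their labels. Pitx1, a hind limb gene, was at 841.6 on the day 0 array labelled early replicate 1 and at 43.7 on early replicate 2, while it was at 675.5 on intermediate replicate 2. Tbx5, a fore limb gene, was at 6.22 on early replicate 1, 346.0 on early replicate 2 and 9.66 on intermediate replicate 2. Proximal limb cells are known for Meis2, which was at 761 and 169 on late replicates 1 and 2, at 109 and 831 on intermediate replicates 1 and 2, and at 804 and 911 on early replicates 1 and 2, so it was not limited to arrays labelled proximal. Early and intermediate replicate 2 thus go against their labels by Pitx1 and Tbx5, and late replicate 2 is in doubt by Meis2 alone. By these 3 genes intermediate replicate 2 was most like early replicate 1, and early replicate 2 was most like late replicate 1. Late replicate 2 was most like intermediate replicate 1. Whether the labels of these arrays were exchanged was not tested. Differences from day 0, correlations and the highest and lowest groups are given with and without these 3 arrays. The BMP4 comparisons use no day 0 array except through the shared estimate of the spread.

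The promoters are printed for 4 of the genes that were higher with BMP4 in the early mean of days, Gata2 with 2 start sites, Gata3, Gata5 and Zfpm1. Each is the 250 bases before a transcription start in RefSeq, build GRCm38.p6, from 5′ to 3′ on the gene's strand. Capitals mark GGCGCC, a GC-rich sequence that BMP-activated SMAD proteins can bind.
Gata2, chr6:88193641-88193890, plus strand: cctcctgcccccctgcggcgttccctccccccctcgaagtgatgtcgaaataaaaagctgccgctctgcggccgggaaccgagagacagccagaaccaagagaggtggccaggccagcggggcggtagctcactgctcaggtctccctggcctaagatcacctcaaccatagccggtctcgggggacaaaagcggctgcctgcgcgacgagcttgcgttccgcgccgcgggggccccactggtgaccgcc
Gata2, chr6:88198414-88198663, plus strand: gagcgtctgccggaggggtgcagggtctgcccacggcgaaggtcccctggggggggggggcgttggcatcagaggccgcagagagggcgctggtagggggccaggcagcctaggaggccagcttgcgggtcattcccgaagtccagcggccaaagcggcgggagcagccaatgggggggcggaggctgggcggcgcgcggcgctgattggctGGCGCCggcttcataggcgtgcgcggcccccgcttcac
Gata3, chr2:9878601-9878850, minus strand: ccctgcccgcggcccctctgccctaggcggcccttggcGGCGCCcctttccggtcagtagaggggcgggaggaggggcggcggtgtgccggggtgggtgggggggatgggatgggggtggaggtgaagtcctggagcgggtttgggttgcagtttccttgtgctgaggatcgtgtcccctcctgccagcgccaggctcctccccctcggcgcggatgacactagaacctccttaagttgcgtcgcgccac
Gata5, chr2:180334680-180334929, minus strand: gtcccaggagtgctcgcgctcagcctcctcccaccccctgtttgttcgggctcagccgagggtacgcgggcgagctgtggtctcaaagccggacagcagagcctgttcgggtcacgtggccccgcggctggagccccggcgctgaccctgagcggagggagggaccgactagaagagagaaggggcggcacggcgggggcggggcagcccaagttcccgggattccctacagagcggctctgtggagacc
Zfpm1, chr8:122281891-122282140, plus strand: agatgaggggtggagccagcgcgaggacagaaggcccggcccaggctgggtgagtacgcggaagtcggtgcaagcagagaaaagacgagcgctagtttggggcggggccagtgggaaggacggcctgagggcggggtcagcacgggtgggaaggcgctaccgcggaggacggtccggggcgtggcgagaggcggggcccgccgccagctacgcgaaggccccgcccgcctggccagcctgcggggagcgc
The motif GGCGCC, which reads the same on both strands, stood 1 time in the downstream of the 2 Gata2 promoters and 1 time in the Gata3 promoter, and its letters were not in the upstream Gata2 promoter, the Gata5 promoter or the Zfpm1 promoter. Of 32851 mouse promoters of the same length, 9.59% held it. The GATA motif AGATAA was found on neither strand of these 5 windows, nor was its form TGATAA, its form AGATAG or its form TGATAG, and 26.5% of all promoters held at least 1 of these motifs. These matches are descriptions of the sequence and say nothing of binding in these cells.

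With BMP4 all 7 genes were higher in the early population when days 1 and 2 were averaged. This was 7 of 7 against 5.44% of all 15136 genes, and the median difference was 1.29 over the 7 genes and 0.04 over all genes. Gata6 rose the most on the log2 scale, by 2.86 ± 0.37 (SE, adjusted p = 4.36e-05), followed by Gata3 at 2.19 ± 0.53 and Zfpm2 at 1.60 ± 0.28. On single days 4 of 7 rose at day 1 (Gata2, Gata6, Zfpm1 and Zfpm2), against 1.53% of all genes, and 3 of 7 at day 2 (Gata2, Gata6 and Zfpm2), against 2.4%. The BMP4 and control arrays of the early population did not overlap for 7 of 7 genes on either day, where 26.2% of all genes at day 1 and 27.1% at day 2 were higher without overlap. With only the arrays of the compared groups fitted, 2 of the 7 single-day calls were made, those of Gata6. In such bulk samples more cells that carry a gene and more RNA per cell cannot be told apart. With each array centred on its median, 445 genes were higher and 1693 lower in the early population, against 824 and 846 (5.59% of all genes) in the values as deposited, and the median of all genes moved to -0.11. Under that centring 5 of the 7 genes still passed, and Gata4 (0.50, adjusted p = 0.0820) and Gata5 (0.60, adjusted p = 0.0850) did not.

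**Figure D1:**
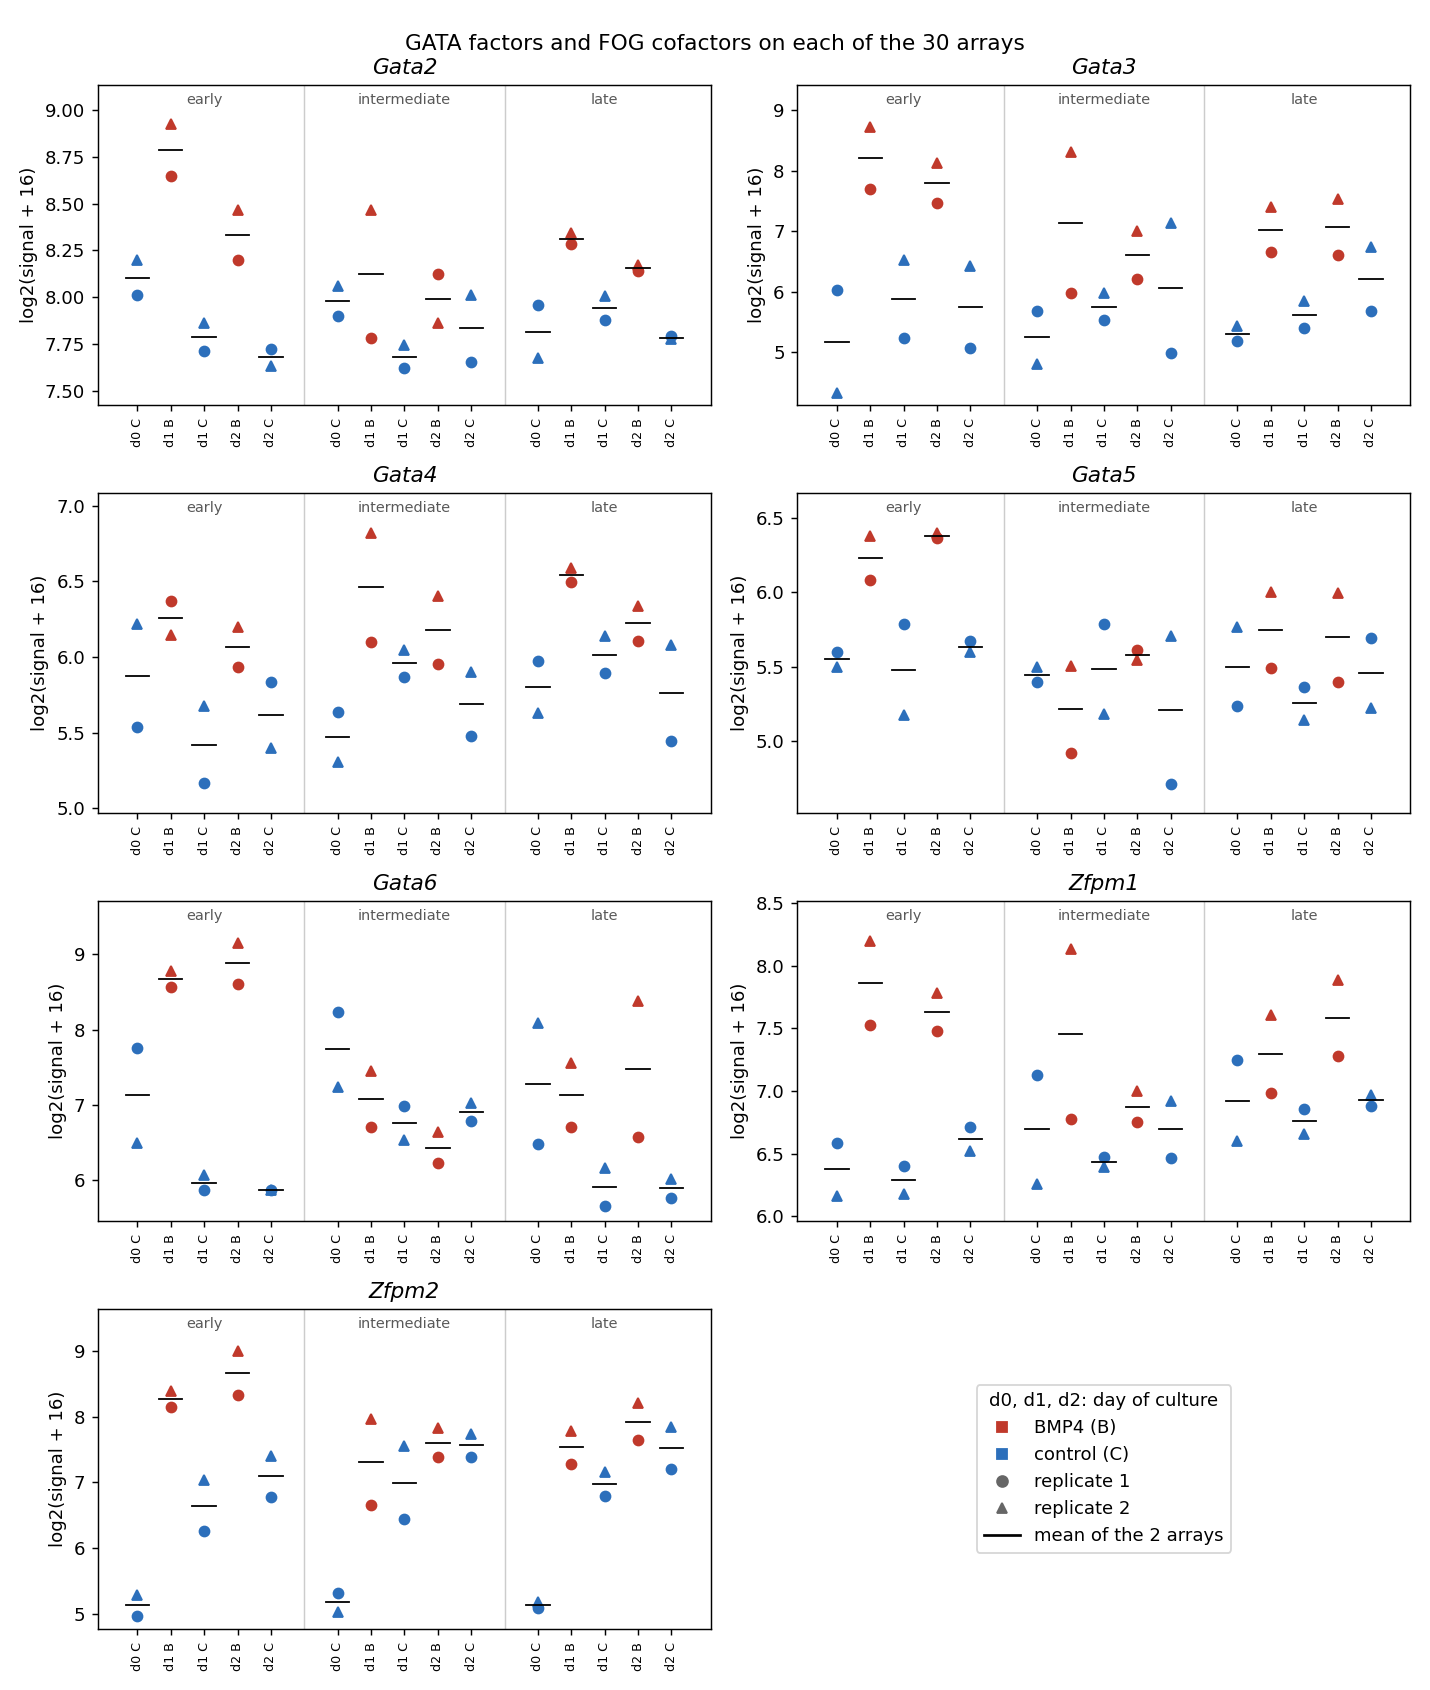
Log2(signal + 16) of each of the 7 genes on each of the 30 arrays, by population, day (d0, d1, d2) and treatment (B, BMP4 in red; C, control in blue), with circles for replicate 1, triangles for replicate 2 and a bar for the mean of the 2 arrays. In the early population every BMP4 array lies above both control arrays of its day for all 7 genes, and Zfpm2 is low on all 6 day 0 arrays.

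Gata6, the anterior limb factor of the group, had the largest difference of the 7 between BMP4 and control cultures in the early population. In the early population its signal was 361 and 424 with BMP4 at day 1 and 374 and 553 at day 2, against 42.4 and 50.9 in control medium at day 1 and 42.6 and 42.3 at day 2. No BMP4 array came near a control array, and the differences were 2.70 ± 0.52 at day 1 (adjusted p = 0.00573) and 3.01 ± 0.52 at day 2 (adjusted p = 0.00224). The day 1 call missed the threshold without control replicate 1 (adjusted p = 0.0727) or BMP4 replicate 2 (adjusted p = 0.0650), and the day 2 call without BMP4 replicate 2 (adjusted p = 0.0624). The intermediate population did not show this pattern. There Gata6 was at 88.6 and 159 with BMP4 at day 1 and 59.0 and 83.7 at day 2, against 110.1 and 76.8 in control medium at day 1 and 94.2 and 114 at day 2. The groups overlapped at day 1, and at day 2 both BMP4 arrays lay below both control arrays, as 12.6% of all genes did, with differences of 0.32 ± 0.52 and -0.47 ± 0.52 that did not pass. In the late population the signal was 88.2 and 172 with BMP4 at day 1 and 78.8 and 318 at day 2, against 34.4 and 55.3 in control medium at day 1 and 38.4 and 48.8 at day 2. The late groups did not overlap on either day, but the BMP4 replicates lay far apart at day 2, and neither 1.22 ± 0.52 (adjusted p = 0.572) nor 1.58 ± 0.52 (adjusted p = 0.845) passed. The late mean of both days, 1.40 ± 0.37, had an adjusted p of 0.130, and it passed without day 2 BMP4 replicate 1 (1.86, adjusted p = 0.0282), while without day 2 BMP4 replicate 2 it was 0.95 (adjusted p = 0.591).

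The response of Gata6 to BMP4 differed between the early and the intermediate population. Averaged over both days, the early minus intermediate difference of responses was 2.93 ± 0.52 (adjusted p = 0.0127), and Gata6 was 1 of 7 genes past the threshold there, against 0.211% of all genes. At day 2 alone this difference was 3.48 ± 0.74 (adjusted p = 0.0493), against 0.126% of all genes, and at day 1 it was 2.38 ± 0.74 (adjusted p = 0.827). Without early day 2 BMP4 replicate 2 the mean-of-days difference was 2.79 (adjusted p = 0.0507), and the day 2 difference was lost in 11 of 18 settings, among them each of 7 with 1 of the 8 day 2 arrays left out. The early minus late difference was 1.45 ± 0.52 (adjusted p = 0.245) and the intermediate minus late difference was -1.48 ± 0.52, and neither passed, against 0.78% and 0% of all genes called in either direction. These comparisons share the arrays of the population named in both.

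**Figure D2:**
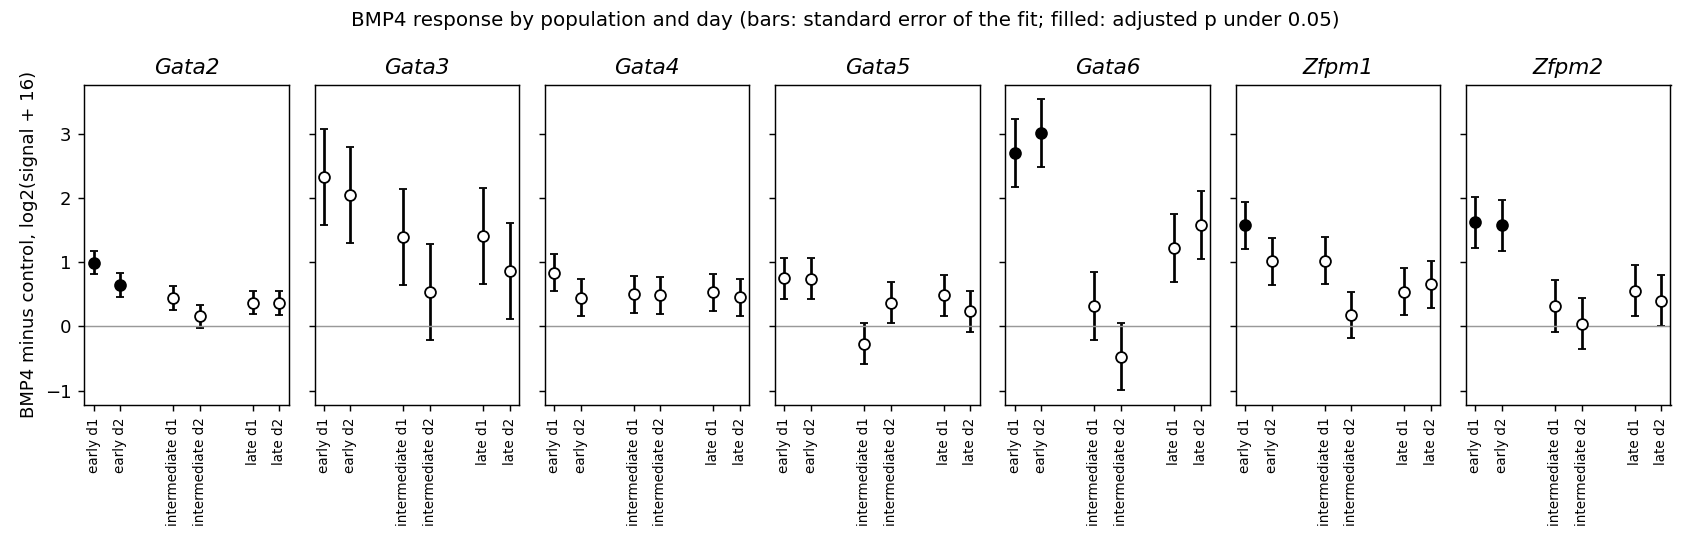
BMP4 minus control difference of log2(signal + 16) for each of the 7 genes in each population and day (early, intermediate and late; d1 and d2 are days 1 and 2), with bars for the standard error of the fit and filled points for an adjusted p under 0.05. All 7 filled points are in the early population, and Gata6 ranges between 3.01 in the early population at day 2 and -0.47 in the intermediate population at day 2.

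Gata4, a factor of heart and lateral mesoderm, was dim on this array. In the early population its signal was 66.8 and 54.7 with BMP4 at day 1 and 45.2 and 57.3 at day 2, against 19.9 and 35.1 in control medium at day 1 and 41.1 and 26.1 at day 2. In the intermediate population it was 52.6 and 97.0 with BMP4 at day 1 and 45.9 and 68.5 at day 2, against 42.5 and 50.1 in control medium at day 1 and 28.5 and 43.8 at day 2. In the late population it was 74.3 and 80.4 with BMP4 at day 1 and 52.9 and 64.8 at day 2, against 43.4 and 54.3 in control medium at day 1 and 27.6 and 51.7 at day 2. Gata4 was thus higher in both BMP4 arrays than in both control arrays in 6 of 6 comparisons, with single-day differences between 0.45 and 0.84, none of which passed. Its early mean of both days was 0.64 ± 0.20 (adjusted p = 0.0469), and its mean over all populations and days was 0.54 ± 0.12 (adjusted p = 0.00434). The early call was lost in 12 of 18 other settings, 7 of which left out 1 early array: BMP4 or control replicate 1 or 2 of either day, except control replicate 2 of day 1.

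Gata5, a factor of the endocardium and endoderm, lay at or under the percentile on 8 of 30 arrays. With BMP4 the early population had 51.8 and 67.2 at day 1 and 66.3 and 68.4 at day 2, against 39.1 and 20.2 in control medium at day 1 and 35.1 and 32.4 at day 2. These groups did not overlap, and the differences were 0.75 ± 0.32 on both days, with adjusted p = 0.262 at day 1 and 0.185 at day 2. The mean of the days, 0.75 ± 0.23, passed (adjusted p = 0.0360), and this call was lost in 10 of 18 other settings, 7 of which left out 1 early array, any except control replicate 1 of day 1. The intermediate population had 14.3 and 29.5 with BMP4 at day 1 and 33.0 and 30.6 at day 2, against 39.3 and 20.3 in control medium at day 1 and 10.3 and 36.3 at day 2. These values overlapped on both days and stood partly under the percentile. The late population had 29.0 and 48.0 with BMP4 at day 1 and 26.3 and 47.9 at day 2, against 25.2 and 19.4 in control medium at day 1 and 35.8 and 21.3 at day 2. Only the day 1 arrays of the late population did not overlap. The mean over all populations and days, 0.39 ± 0.13, did not pass (adjusted p = 0.0592).

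Gata2, a factor of blood progenitors and mast cells, was higher with BMP4 in the early population on both days. With BMP4 the early population had 385 and 469.6 at day 1 and 277 and 337 at day 2, against 194 and 217 in control medium at day 1 and 196 and 183 at day 2. Every early BMP4 array lay above every early control array, and the gene rose by 1.00 ± 0.18 at day 1 (adjusted p = 0.00376) and by 0.65 ± 0.18 at day 2 (adjusted p = 0.0404). The day 1 call missed the threshold without control replicate 1 (adjusted p = 0.0689) or BMP4 replicate 2 (adjusted p = 0.0713), and the day 2 call without either control replicate, BMP4 replicate 2 or the 3 doubted day 0 arrays (adjusted p = 0.0503), and also with each array centred on its median or no mean-variance trend. The intermediate population had 205 and 337 with BMP4 at day 1 and 263 and 217 at day 2, against 181 and 198 in control medium at day 1 and 186 and 243 at day 2. The groups were apart at day 1 and overlapped at day 2. In the late population the BMP4 arrays had 295 and 309 at day 1 and 266 and 272 at day 2, against 219 and 241 in control medium at day 1 and 206 and 203 at day 2. The late groups were apart on both days, with a difference of 0.37 ± 0.18 on each that did not pass. Over all populations and days the difference was 0.50 ± 0.07 (adjusted p = 0.000170).

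Gata3, a factor of T cells, sympathetic neurons and the inner ear, had replicates that lay far apart. Early BMP4 cultures had 191 and 405 at day 1 and 161 and 263 at day 2, against 21.7 and 75.7 in control medium at day 1 and 17.6 and 70.1 at day 2. Control replicate 1 lay under the percentile on both days, so the size of the early difference rests in part on a background signal. The groups were apart on both days, yet 2.33 ± 0.75 (adjusted p = 0.115) and 2.05 ± 0.75 (adjusted p = 0.116) did not pass alone. Their mean, 2.19 ± 0.53, passed (adjusted p = 0.0100), and it missed the threshold without control replicate 1 of day 1 (1.87, adjusted p = 0.0682), control replicate 1 of day 2 (1.85, adjusted p = 0.0625) or BMP4 replicate 2 of day 2 (2.02, adjusted p = 0.0540). Intermediate BMP4 cultures had 46.8 and 301 at day 1 and 57.7 and 113 at day 2, against 30.2 and 46.8 in control medium at day 1 and 15.7 and 125 at day 2. These groups overlapped, and the first BMP4 replicate of day 1 was no higher than the second control. Late BMP4 cultures had 84.7 and 152 at day 1 and 82.0 and 169 at day 2, against 26.1 and 41.3 in control medium at day 1 and 35.5 and 90.4 at day 2. They were apart at day 1 only. Over all populations and days Gata3 was higher by 1.43 ± 0.31 (adjusted p = 0.00386).

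Zfpm1, which encodes FOG1, the partner of GATA factors in red cell and megakaryocyte precursors, was higher with BMP4 in all 3 populations but passed on a single day in the early one only. Early BMP4 cultures had 169 and 277 at day 1 and 163 and 205 at day 2, against 68.5 and 56.3 in control medium at day 1 and 89.2 and 75.8 at day 2. The groups were apart, with 1.57 ± 0.36 at day 1 (adjusted p = 0.0216) and 1.01 ± 0.36 at day 2 (adjusted p = 0.108). The day 1 call was lost without either control replicate or BMP4 replicate 2. Intermediate BMP4 cultures had 93.8 and 266 at day 1 and 91.6 and 112 at day 2, against 72.7 and 68.2 in control medium at day 1 and 72.5 and 105 at day 2. The groups were apart at day 1, where 1.02 ± 0.36 did not pass (adjusted p = 0.442), and overlapped at day 2. Late BMP4 cultures had 111 and 179 at day 1 and 139 and 220.4 at day 2, against 99.7 and 85.1 in control medium at day 1 and 102 and 109 at day 2. They were apart on both days, and the mean over all populations and days was 0.83 ± 0.15 (adjusted p = 0.000844).

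Zfpm2, which encodes FOG2, a partner of Gata4 in heart, diaphragm and gonad, was higher with BMP4 in the early population and also rose with time in control medium. Early BMP4 cultures had 268 and 319 at day 1 and 307 and 495 at day 2, against 60.7 and 115 in control medium at day 1 and 93.6 and 153 at day 2. Every BMP4 array was more than any control array of its day, and the gene rose by 1.62 ± 0.40 at day 1 (adjusted p = 0.0334) and by 1.57 ± 0.40 at day 2 (adjusted p = 0.0233). The day 1 call was lost without control replicate 1 or either BMP4 replicate, and the day 2 call without control replicate 1 or BMP4 replicate 2. Intermediate BMP4 cultures had 84.9 and 235 at day 1 and 151 and 211 at day 2, against 71.1 and 171 in control medium at day 1 and 152 and 196 at day 2. Here the treatments overlapped and the differences were 0.32 ± 0.40 and 0.04 ± 0.40. Late BMP4 cultures had 139.7 and 205 at day 1 and 184 and 279 at day 2, against 94.9 and 127 in control medium at day 1 and 131 and 214 at day 2. They were apart at day 1 only, and neither day passed. The early minus intermediate difference of the response was 1.42 ± 0.40 (adjusted p = 0.142) and the early minus late difference 1.12 ± 0.40 (adjusted p = 0.237).

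In the intermediate and the late population none of the 7 genes passed in the limma fit, on single days or in the mean of days. The shares of all genes called higher there were also low, 0.172% and 0.00661% at days 1 and 2 of the intermediate population, 0.0661% and 0.00661% in the late population, and 0.311% and 0.231% in their means of days. At an unadjusted p under 0.05 there were 2 of 7 genes (Gata2 and Zfpm1) at day 1 and 0 at day 2 in the intermediate population, and Gata6 alone on each day in the late population, where 7.49% and 4.53% of all genes in the intermediate and 7.56% and 4.7% in late cultures were. In the means of days there were 3 in the intermediate population (Gata2, Gata4 and Zfpm1) and 5 in the late population (all but Gata5 and Zfpm2), against 8.68% and 8.85% of all genes. The median over the 7 genes was 0.30 in the intermediate and 0.49 in the late mean of days, against 0.01 and 0.00 over all genes. The arrays were higher with BMP4 without overlap for 3 of 7 genes at day 1 and 1 at day 2 in the intermediate population, where 15.2% and 16.9% of all genes were, and for 7 and 4 in the late population, where 20.6% and 17.8% were. Averaged over all populations and days, 6 of 7 genes rose, all but Gata5, against 6.1% of all genes. No gene of the 7 passed for a change of its response between day 1 and day 2 in any population, and 0 had an unadjusted p under 0.05 there, where 0% of all genes passed.

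In control medium Zfpm2 was higher on every array of days 1 and 2 than on any day 0 array. Its day 0 signal was 15.3 and 23.2 in the early population, 24.1 and 16.7 in the intermediate and 18.0 and 20.3 in the late population, at or under the percentile on 6 of 6 arrays. It passed the filter on low values through the arrays of days 1 and 2 alone, so the filter itself favoured a difference, and the values that follow come from the fit with no filter. Day 1 minus day 0 was 1.51 ± 0.41 in the early (adjusted p = 0.0178), 1.82 ± 0.41 in the intermediate (adjusted p = 0.00382) and 1.84 ± 0.41 in the late population (adjusted p = 0.00399). Day 2 minus day 0 was 1.96 ± 0.41, 2.38 ± 0.41 and 2.38 ± 0.41 in the same order (adjusted p = 0.00167, 0.000204 and 0.000253). Since day 0 lies so low, the size depends on the value added before the log: the early day 1 difference was 2.09 with 1 added and 0.84 with 64 added, where it did not pass (adjusted p = 0.0646). With the filter, that call was also lost without early day 0 replicate 1 or early day 1 replicate 2, and the intermediate day 1 call with the mean of all probe sets (0.99, adjusted p = 0.0515) or without intermediate day 1 replicate 2. Without the doubted arrays, which leaves 1 array at day 0, the differences were 1.68, 1.67 and 1.89 at day 1 and 2.12, 2.24 and 2.43 at day 2. No difference of day 2 from day 1 passed for any of the 7 genes, against 1.21%, 0.832% and 0.846% of all genes in the early, intermediate and late populations. At day 1 the shares of all genes called higher than at day 0 were 9.51% in the early, 13.4% in the intermediate population and 11.9% in the late one, and at day 2 they were 14.8%, 17.6% and 16.9%. Marker sums of other cell types differed between these days: the summed signal of 8 red cell genes was 184 to 616 on the control arrays of days 1 and 2, against 7499 to 18029 on the day 0 arrays. The sum of 10 endothelial genes was 279 to 464 at days 1 and 2, against 702 to 1263 at day 0, and that of 10 cardiomyocyte genes 963 to 4718 at days 1 and 2, against 162 to 514 at day 0. In the cardiomyocyte list Tnni3 was above the percentile on no array. Nkx2-5 was at -0.08 ± 0.31 for day 1 minus day 0 in the intermediate population and did not pass. Its early minus intermediate difference in control medium was -0.84 ± 0.31 at day 0, as labelled, and 0.06 ± 0.31 at day 1. Neither passed, and the intermediate value is not taken to hold for the early population. The sum of such a list does not identify the cells that express its genes. Which cells carry these sums, and their part in the differences from day 0, was not tested.

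Gata6 lay lower in control cultures of days 1 and 2 than at day 0, and the call depended on the arrays in doubt. At day 0 its signal was 200.5 and 74.2 in the early, 285 and 135 in the intermediate and 73.5 and 255 in the late population, and the replicates of each label stood well apart. Paired instead by likeness in Pitx1, Tbx5 and Meis2, the values were 200.5 and 135, 285 and 255, and 73.5 and 74.2. That pairing was made after seeing the data. Day 2 minus day 0 was -1.26 ± 0.52 (adjusted p = 0.0893) in the early, -0.84 ± 0.52 (adjusted p = 0.258) in the intermediate and -1.39 ± 0.52 (adjusted p = 0.0541) in the late population, where 9.31%, 12.7% and 10.6% of all genes were called lower. Without the 3 doubted arrays each day 0 group is 1 array, assumed to vary like the other groups, and the values were -1.89 (adjusted p = 0.0150), -1.33 (adjusted p = 0.0790) and -0.59 (adjusted p = 0.498), so the early difference passed and the late one moved toward 0. Without late day 0 replicate 1 instead, the late difference was -2.19. The 1 array left there is late replicate 2, the one in doubt by Meis2. The other 5 genes did not pass between any days in either form, and between the populations in control medium 0 of 7 genes passed in limma or had an unadjusted p under 0.05 on any day, and 0 passed without the doubted arrays. At day 0 this was against 0% of all genes in each pair of populations. Each labelled day 0 group holds arrays that differ by Pitx1, Tbx5 or Meis2, and without the doubted arrays 1 array stands against 1. The day 0 comparisons therefore cannot decide whether the populations differed. For early minus intermediate, early minus late and intermediate minus late the share of all genes was 0.0529%, 0.476% and 0.667% at day 1 and 0.377%, 0.41% and 0.72% at day 2. The largest such differences were those of Gata6 at day 2, -1.03 ± 0.52 for early minus intermediate (adjusted p = 0.775) and 1.01 ± 0.52 for intermediate minus late (adjusted p = 0.701).

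**Figure D3:**
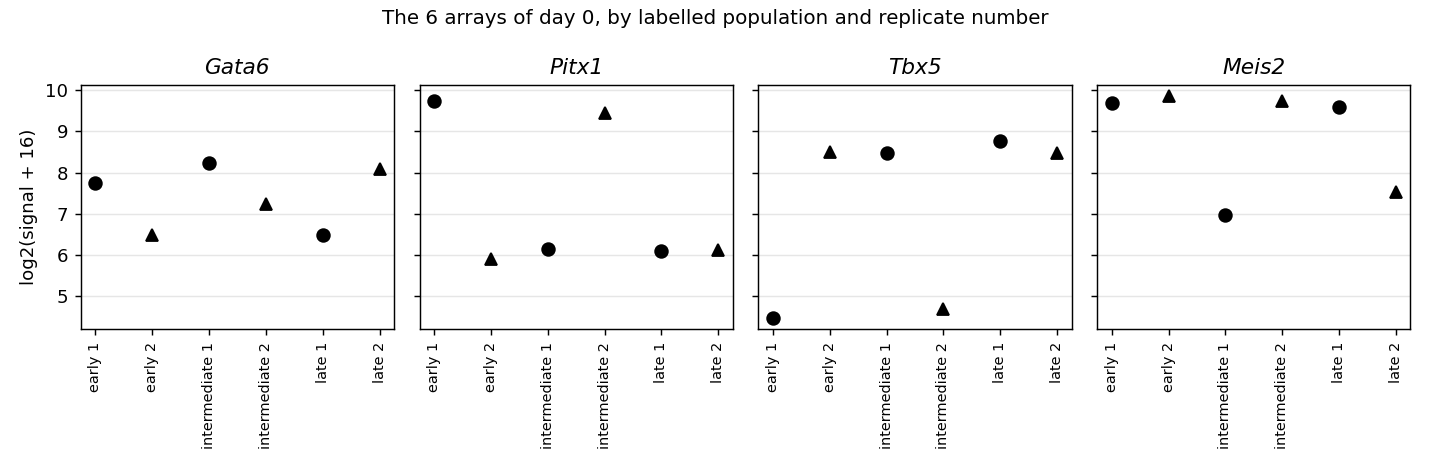
Log2(signal + 16) of Gata6 and of 3 genes of limb identity, Pitx1 (hind limb), Tbx5 (fore limb) and Meis2 (proximal limb), on the 6 day 0 arrays, by labelled population and replicate number (circles replicate 1, triangles replicate 2). Gata6 lies between 6.48 and 8.23 and replicates of each label stand apart, as do those of the identity genes in several labels.

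Ranked by their 15 group means, 6 of the 7 genes had an early BMP4 group on top. The count rests on the same values as the early BMP4 differences above. The share of all genes with such an order is not given here, so the count is a description only. For Gata6 the order ran through 8.88 ± 0.38 (SD, n = 2) in early BMP4 cultures of day 2 and 8.67 ± 0.16 in those of day 1, then 7.74 ± 0.70 in intermediate day 0 cultures, down to 5.87 ± 0.01 in early control cultures of day 2. Of its 14 steps between neighbours 3 were larger than the larger SD of the 2 groups, among them the step below the early BMP4 groups. Zfpm2 was highest in early BMP4 cultures of day 2, at 8.67 ± 0.47, and 1 of its steps exceeded the spread, the drop of 1.47 between the 12 groups of days 1 and 2 and the day 0 groups, which lay between 5.13 and 5.18. Gata2 was highest in early BMP4 cultures of day 1, at 8.79 ± 0.20, and lowest in early control cultures of day 2, at 7.68 ± 0.06, with 3 such steps. Gata5 ran between 6.38 ± 0.03 in early BMP4 cultures of day 2 and 5.21 ± 0.70 in intermediate control cultures of day 2, also with 3 such steps. Zfpm1 ran between 7.86 ± 0.47 in early BMP4 cultures and 6.29 ± 0.16 in early control cultures, both of day 1, with 1 such step. Gata3 ran between 8.20 ± 0.72 in early BMP4 cultures of day 1 and 5.17 ± 1.21 in early day 0 cultures, and no neighbouring groups differed beyond their spread. Gata4 differed from the others in its order: late BMP4 cultures of day 1 were on top at 6.54 ± 0.07, early control cultures of day 1 were lowest at 5.42 ± 0.36, and again no step exceeded the spread. Without the doubted arrays the highest group of each gene stayed on top, and the lowest changed for Gata3 alone, to late day 0 cultures at 5.18.

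The 7 other probe sets of these genes had the sign of the brighter one in 35 of 42 single-day BMP4 differences. The second Gata6 probe set with signal on most arrays had 241 and 211 with BMP4 at day 1 and 221 and 272 at day 2 in the early population, against 17.8 and 22.6 in control medium at day 1 and 34.6 and 41.0 at day 2. Its BMP4 difference was 2.51 ± 0.26 in the early, -0.11 ± 0.26 in the intermediate and 0.87 ± 0.26 in the late mean of days. The second Gata5 probe set had 58.3 and 94.9 with BMP4 at day 1 and 47.4 and 79.5 at day 2 in the early population, against 10.0 and 3.91 in control medium at day 1 and 4.07 and 17.0 at day 2. It was above the percentile on 8 of 30 arrays, all with BMP4, and on no control array, so its control signals are at background and its difference has no measured size. The second Gata2 probe set was higher with BMP4 by 1.41 ± 0.14 in the early, 0.95 ± 0.14 in the intermediate and 0.68 ± 0.14 in the late mean of days, larger than the 0.82, 0.30 and 0.37 of the brighter one. When all probe sets of a gene were averaged, Gata2 passed in the intermediate mean of days (0.62, adjusted p = 0.0141). The second Zfpm2 probe set disagreed in the early population at day 1, with 16.7 and 77.3 in BMP4 cultures against 38.8 and 47.2 in control cultures, and with it averaged in, that early day 1 call was lost. Its mean over all populations and days was 0.90 ± 0.18, beside 0.75 ± 0.16 for the brighter one. The second Zfpm1 probe set, above the percentile on 22 of 30 arrays, gave 0.74 ± 0.20 in the early, 0.14 ± 0.20 in the intermediate and 0.49 ± 0.20 in the late mean of days, with the sign of the brighter one in 6 of 6 comparisons. Another Gata6 probe set, 1 of 2 beside the one used, was above the percentile on 5 of 30 arrays and had the sign of the brighter one in 4 of 6. The second Gata4 probe set was above the percentile on 0 of 30 arrays and gave 0.02 ± 0.20 in the early mean of days.

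The partners with which GATA factors act in heart and mesenchyme moved in part with them. Of 16 such genes, 8 were higher with BMP4 and 0 lower over all populations and days, against 6.1% and 5.55% of all genes, and their median difference was 0.27, against 0.01 over all genes. This list was chosen with earlier results of these data known, and it shares Tbx2 and Tbx3 with the list of BMP response genes. The count is therefore a description and no independent test. Tbx20, a T-box factor of the heart, was higher by 3.30 ± 0.20 (adjusted p = 2.05e-09), Tbx3 by 1.28 ± 0.14, Tbx2 by 1.65 ± 0.21 and Hand1 by 1.13 ± 0.18. Isl1, Myocd, Hand2 and Srf were also higher. In the early mean of days 5 of 16 passed (Tbx20, Tbx2, Tbx3, Hand1 and Myocd), in the intermediate 2 (Tbx20 and Tbx3) and in the late 1 (Tbx20), against 5.44%, 0.311% and 0.231% of all genes. Nkx2-5, the homeobox factor that pairs with Gata4 in cardiomyocytes, was at 0.16 ± 0.13 and did not pass. Of 10 cardiomyocyte genes 8 were tested and 0 called over all populations and days or in the early mean of days, and Tnni3 was above the percentile on no array.

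**Figure D4:**
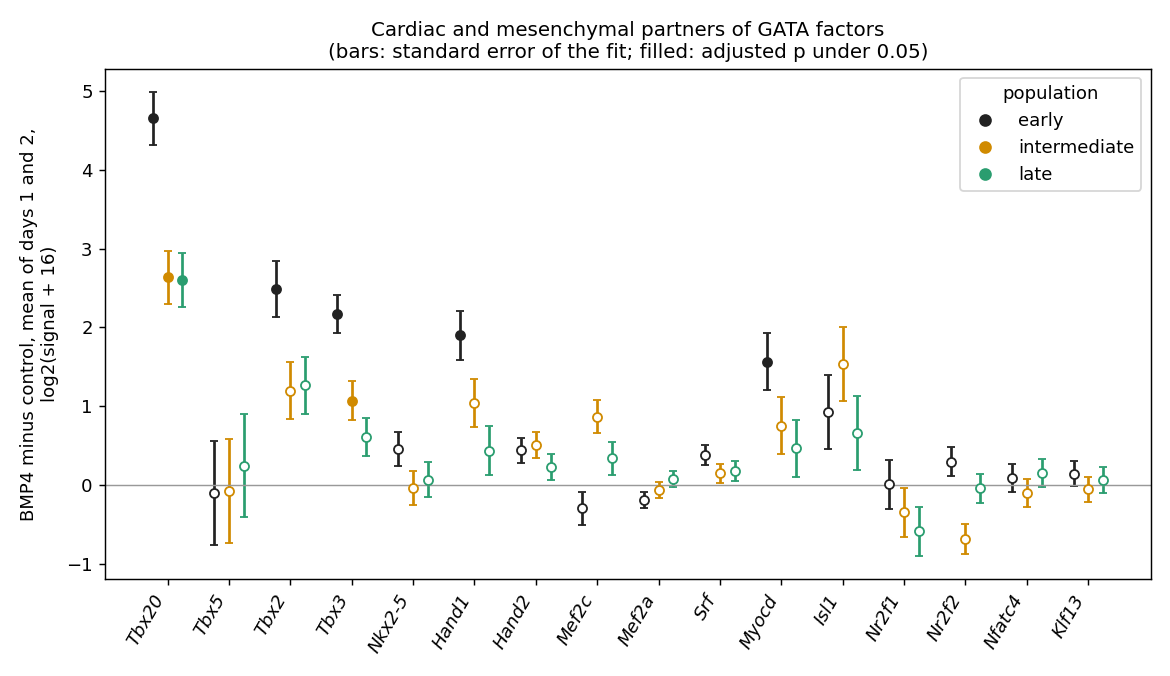
BMP4 minus control difference of log2(signal + 16), mean of days 1 and 2, for the 16 cardiac and mesenchymal partners of GATA factors in the early, intermediate and late population, with bars for the standard error of the fit and filled points for an adjusted p under 0.05. Tbx20 is filled in all 3 populations, at 4.65 in the early, 2.64 in the intermediate population and 2.60 in the late one, and 5 of the 16 genes have a filled point in the early population.

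The calls among blood partners and FOG corepressors were few, as they were among all genes, of which 6.1% were higher and 5.55% lower over all populations and days. Of 12 partners from blood development, among them Gata1, Tal1, Lmo2, Runx1 and Spi1, 0 passed over all populations and days or in any population's mean of days in limma, with a median of 0.10. Tal1, a partner of Gata2 in blood progenitors, was at 0.21 ± 0.15, and Gata1 at 0.11 ± 0.12. Of 14 genes of the NuRD complex and CtBP, through which FOG proteins repress, 0 were higher and 1 was lower, Mta1 at -0.18 ± 0.05 (adjusted p = 0.0205). Mta1 was also the only 1 of 9 other genes with a GATA-type zinc finger that passed. Trps1, such a gene known for its role in cartilage, was at 0.14 ± 0.06 (adjusted p = 0.179).

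Most of the listed BMP response genes were higher in the same cultures. Of 14, 11 passed over all populations and days and 11 in the early mean of days, against 3 each in the intermediate and late means. Of all genes 6.1%, 5.44%, 0.311% and 0.231% were called higher in these comparisons. In the early mean of days Id1 (-0.16 ± 0.15, adjusted p = 0.550) and Id3 (0.16 ± 0.15, adjusted p = 0.543) did not pass. Dlx5 was at -0.62 ± 0.27 there (adjusted p = 0.161) and did not pass either. Nog, a secreted BMP antagonist, was higher by 1.69 ± 0.12, Msx2 by 1.69 ± 0.17, Dlx2 by 2.32 ± 0.22 and the inhibitory Smad6 by 0.84 ± 0.12. Nog was higher by 1.56 ± 0.21 in intermediate and 1.69 ± 0.21 in late cultures, where Gata6 was at -0.07 ± 0.37 and 1.40 ± 0.37 and did not pass. Tbx2 and Tbx3 stand in this list and in that of the partners.

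Macrophage markers moved with BMP4 in the early and intermediate populations. Of 9 macrophage genes, 8 were higher in the early mean of days, 2 in the intermediate and 0 in the late, against 5.44%, 0.311% and 0.231% of all genes, with Tyrobp at 1.30 ± 0.16 in early and 0.90 ± 0.16 in intermediate cultures. Their summed signal was 1071 to 1168 with BMP4 at day 1 and 1369.8 to 1375 at day 2 in the early population, against 567 to 644 and 493 to 585 in control medium. In the intermediate population it was 1208 to 1415 with BMP4 at day 1 and 1042 to 1181 at day 2, against 746 to 776 and 528 to 623 in control medium. In the late population it was 405 to 553 with BMP4, against 419.5 to 504.5 in control medium. Whether such cells carry part of the values of the 7 genes was not tested.

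Mast cells express Gata2, and of 6 mast cell genes on the array Mcpt4 and Hdc were above the percentile on no array. Of the 4 tested, Cpa3 was higher in the early mean of days (0.56 ± 0.16, adjusted p = 0.0291), where the sum over the 6 genes was 141 to 199 with BMP4 at day 1 and 173 to 192 at day 2, against 99.2 to 144 and 114 to 131 in control medium. Of 10 genes of ectoderm and apical ridge, where Gata3 and Gata2 can also be expressed, Krt8 alone was higher in the early mean of days (0.61 ± 0.16, adjusted p = 0.0198), and the sum was 1074 to 1328 with BMP4 at day 1 and 659 to 1011 at day 2, against 842 to 961 and 577 to 687 in control medium. Of 10 endothelial genes 0 were higher, and Tek and Egfl7 were lower over all populations and days. Of 5 tested genes of mesothelium and lateral plate, Wt1 was higher in the early mean of days (0.79 ± 0.25, adjusted p = 0.0423), and Msln was above the percentile on no array. Of 3 tested genes of sympathetic and chromaffin cells, where Gata3 and Gata2 act, 0 passed. The part of these cells in the values was not tested. Of all genes 5.44% were higher and 5.59% lower in the early mean of days, and 6.1% and 5.55% over all populations and days. In lists this short, counts of 0 or 1 called gene say little about a cell type.

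The genes whose 15 group means followed each of the 7 most closely were named by a fixed rule, the 3 highest Pearson correlations over the 15 groups, which share the array, the pooled tissue and the shift between day 0 and culture. For Gata3 they were Tbx20 (r = 0.962), the netrin receptor gene Unc5b (0.958) and Grin3a (0.944). For Gata2 they were Kit, the receptor of stem cell factor (0.921), Ebp (0.886) and Ppfia2 (0.882), and Kit was itself higher with BMP4 by 1.46 ± 0.14 (adjusted p = 1.97e-06). For Zfpm1 they were Insyn2b (0.936), Smad6 (0.906) and the Argonaute gene Ago4 (0.903), which also led the list of Gata4 (0.894), ahead of Glis1 (0.870) and Garem1 (0.823). For Gata6 they were Neurl3 (0.889), the thrombin receptor gene F2r (0.876) and Bdh2 (0.874). For Gata5 they were Klk8 (0.933), Pcdh20 (0.930) and Crtac1 (0.919), and for Zfpm2 Scrn1 (0.982), Mllt11 (0.971) and Mpp1 (0.970). Among the 7 genes themselves the closest pair was Gata3 and Zfpm1 (0.889) and the least alike pair Gata6 and Zfpm2 (0.206). Without the doubted arrays the correlations with these neighbours lay between 0.756 for Gata6 and F2r and 0.970 for Zfpm2 and Mllt11, while Gata3 and Zfpm1 were at 0.754 and the closest pair of the 7 was Gata2 and Gata3 (0.857).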

How the data were processed

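RNA of 30 cultures was hybridised to 30 Affymetrix whole-genome mouse arrays. The deposited values are the authors' linear signal intensity from MAS5, per the submitters' processing notes, each array scaled to a trimmed mean of 150. The version and settings were not given in the sources used here. No counts exist, so the number of arrays limits the precision.

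Of 45101 probe sets, 33250 above their array's 40th percentile on at least 2 arrays were kept, 27577 of them with 1 gene symbol, and the brightest stood for each of 15136 genes. Symbols came from GEO's platform annotation, in which 34945 probe sets had 1 symbol, 932 several and 9160 none. Log2(signal + 16) was fitted in limma 3.58.1 (R 4.3.3) with 1 mean per group over all 30 arrays, a mean-variance trend and 15 residual degrees of freedom. The 40 comparisons were two-sided and each adjusted by Benjamini-Hochberg over all genes.

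Data with 200 changed genes were simulated for the comparison of early BMP4 and control cultures of day 1. Of those changed by 1 log2 unit 62% were recovered and of those changed by 2 92%, and 4.44% of the calls were false. The noise was drawn independently for each gene and array, so shifts shared by arrays or replicates are not covered. The genes named are the 7 members, up to 4 of each list with the smallest adjusted p over all populations and days, any gene of a count of 5 or fewer, and the 3 closest patterns of each member. Other genes, such as Nkx2-5, Isl1 and Trps1, were named after their values were seen. The members and lists were chosen with earlier results of these data known. Alternatives were other pseudocounts, centring, quantile normalization, no filter, the mean of all probe sets, no trend, a replicate block, fewer groups, no doubted day 0 arrays and each array left out. The correlations and group orders without the doubted arrays were added after seeing the data.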

Additional observations from a re-analysis of the deposited data

Results flagged for a closer look

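The BMP4 response of Gata6 differed between the early and the intermediate population in a test of the difference itself. It was 2.93 ± 0.52 on the log2 scale in the mean of days 1 and 2 (SE, adjusted p = 0.0127 in limma), and 3.48 ± 0.74 at day 2 alone (adjusted p = 0.0493). The day 2 call was lost in 11 of 18 settings, 7 of which left out 1 array, and the mean-of-days call without early day 2 BMP4 replicate 2 (adjusted p = 0.0507). The BMP4 difference behind it was 2.86 ± 0.37 in early cultures and -0.07 ± 0.37 in intermediate ones. Both early BMP4 arrays lay above both early control arrays on each day, while in the intermediate population the arrays overlapped at day 1 and were lower with BMP4 at day 2.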

How the results depend on the processing

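No value changed direction while past the threshold. The 7 single-day BMP4 calls became 2 when only the arrays of the compared groups were fitted, which leaves fewer arrays to estimate the spread, and the 1 difference between the populations' mean responses became 3 with a replicate block. Leaving out 1 array gave 3 to 9 single-day calls, 4 to 7 in the means of days, 6 to 7 over all populations and days, 0 to 3 differences of response, 0 changes of response between days, 5 to 8 differences between days in control medium and 0 between populations. The early means of Gata2, Gata6, Zfpm1 and Zfpm2 and all 6 calls over all populations and days passed in every setting run. Of the 28 called values, 26 stayed past the threshold with a pseudocount of 1, 24 with centring and 22 with only the compared groups. Gata5 over all populations and days passed with a pseudocount of 64 (0.20, adjusted p = 0.0374). It also passed with the mean of all probe sets, which adds a probe set that is at background on every control array. The cause was not tested where none is given.

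The labels number the replicates 1 and 2 but do not say that a number marks a shared day or pool. The deviations of same-numbered arrays correlated at 0.0681 to 0.300 over genes in 2 pairs per comparison, so the arrays were treated as unpaired. With the replicate block 9 single-day values passed, which added Gata3 in the early population at day 1 (adjusted p = 0.0359) and day 2 (adjusted p = 0.0396), and the response of Zfpm2 differed for early minus intermediate (1.42, adjusted p = 0.00776) and early minus late (1.12, adjusted p = 0.0293). Signals near the percentile, those of Gata5, of Zfpm2 at day 0 and of Gata3 on 6 control arrays, have the least precision.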

Other observations

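In cultures of days 1 and 2 the array labelled replicate 2 was higher than replicate 1 in 12 of 12 groups for Gata3 and for Zfpm2. The same held in 10 of 12 groups for Gata4 and Gata6, 9 for Gata2, 8 for Zfpm1 and 6 for Gata5. Over all 15 groups the median of replicate 2 minus replicate 1 was 0.80 for Gata3 and 0.50 for Zfpm2 on the log2 scale.

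Gata6 in late BMP4 cultures of day 2 was at 78.8 on replicate 1 and 318 on replicate 2, and in late day 0 cultures at 73.5 and 255.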
